A study of Aspergillus nidulans with 12 samples.

Results

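The most abundant transcripts of Aspergillus nidulans mycelium are described here from the fragment counts of an RNA-Seq experiment on 2 kaeA mutants and their controls. Members were chosen by the authors' mean, which had to reach at least 20000 normalized fragments in both comparison tables, and 11 genes (6 of glycolysis and 5 of histones) were left out by name. This gave 111 genes of 7729 listed, or 1.44%, and their high level follows from the choice. KaeA (AN6569) is a subunit of KEOPS, a conserved complex that modifies tRNA, and the study asked how its mutation alters the transcriptome. The strains were kaeA19 with the markers proA6, pabaA9 and biA, its control wt4 with proA6, pabaA9 and biA1, kaeA25 with proA6, adF9, yA2 and phenA2, and its control wt5 with the markers of kaeA25 and an intact kaeA. The allele number of biA in kaeA19 differs between libraries in the labels, and the study's methods give kaeA19 another pabaA allele than the labels do. All strains, the controls included, thus carry the proline marker proA6. The study describes kaeA mutations as suppressors of mutations that make the fungus depend on added proline. Its methods name no supplement for the markers. Each was grown as mycelium in liquid minimal medium with 3 biological replicates, 12 libraries in all.

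Each comparison has a table, named kaeA19/wt4 or kaeA25/wt5 below, with 1 mean per gene over 6 libraries, 3 of the mutant and 3 of its control. The mean joins mutant and control, so it gives the level of a transcript in kaeA19 and wt4 together, or in kaeA25 and wt5 together. The change of a member in either mutant is not given here, because no values per library were analysed and the authors' own fold changes were not used. No replicate error, interval or test could be had either, and every value below is a description. Depth per library is unknown from these tables. The means of all listed genes summed to 22310307 normalized fragments in the kaeA19/wt4 table and to 21992765 in the kaeA25/wt5 table.

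In a growing hypha a small set of genes supplies much of the messenger RNA. Such transcripts commonly code for the protein synthesis machinery, chaperones that fold new proteins, enzymes of central metabolism, the proton pump of the plasma membrane and proteins of the cell wall. In minimal medium with nitrate and glucose the cell must also reduce nitrate and bind the ammonium formed into glutamate and glutamine. A cell without nutritional markers must make its own amino acids and lipids there as well. The values are fragments per gene and were not divided by transcript length. A long transcript gives more fragments than a short one at the same number of molecules, so the shares below are shares of fragments and do not rank genes by molecules.

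The members together took 28.4% of the summed means in the kaeA19/wt4 table and 30.3% in the kaeA25/wt5 table. Their median was 33098 normalized fragments in the kaeA19/wt4 table, 35.5 times the median of all listed genes (932), and 34889 in the kaeA25/wt5 table, 38.1 times that median (915). The listed genes are not every gene of the genome. They include 265 at a mean of 0 in kaeA19/wt4 and 181 in kaeA25/wt5. The smallest mean above 0 was 11.8 in kaeA19/wt4 and 11.2 in kaeA25/wt5. Within the set the fragments were concentrated. The 20 highest members held 50.9% of the members' sum in the kaeA19/wt4 table and 51.7% in the kaeA25/wt5 table. Over all listed genes, it took 410 genes of the kaeA19/wt4 table and 389 of the kaeA25/wt5 table to reach 50% of the total. Of the 10 members with the highest mean, 8 were the same in both tables, and of the first 20, 16 were the same.

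**Figure D1:**
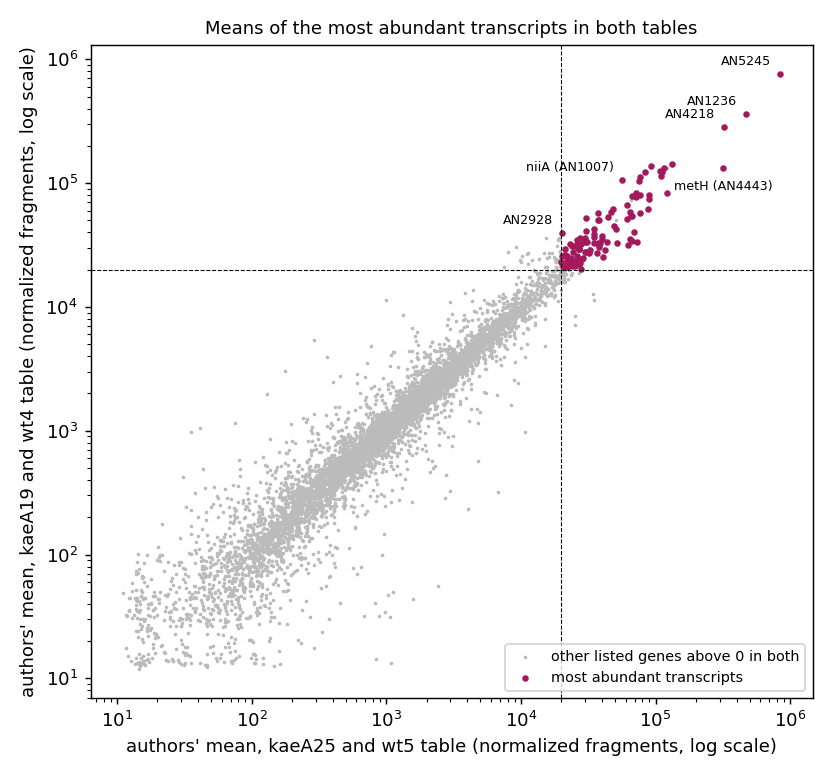
Authors' mean of normalized fragments per gene, with the kaeA19/wt4 table on the vertical and the kaeA25/wt5 table on the horizontal axis, both on log scales. Each point is a gene above 0 in both tables, the 111 members are coloured and the dashed lines mark the limit of 20000. AN5245, with means of 755156 in kaeA19/wt4 and 835535 in kaeA25/wt5, stands apart at the top, and metH and niiA lie off the diagonal on opposite sides.

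The limit was a point on a continuous scale. The 3 members just inside it, by the lower of their 2 means, were aarA (AN5610) with means of 22985 in kaeA19/wt4 and 20003 in kaeA25/wt5, gel1 (AN7657) with 25860 in kaeA19/wt4 and 20097 in kaeA25/wt5, and aclA (AN2435) with 20213 in kaeA19/wt4 and 28187 in kaeA25/wt5. Just outside were AN9419 with 19986 in kaeA19/wt4 and 21161 in kaeA25/wt5, AN4965 with 19924 in kaeA19/wt4 and 20899 in kaeA25/wt5, and cpcA (AN3675), for the transcription factor of cross-pathway control of amino acid synthesis, with 20447 in kaeA19/wt4 and 19816 in kaeA25/wt5. A further 64 genes passed the limit in 1 table only, 39 in the kaeA19/wt4 table and 25 in the kaeA25/wt5 table. Of the 11 genes left out by name, 5 glycolysis and 3 histone genes would have passed, with shares of 1.29% and 0.512% in the kaeA19/wt4 table, and of 1.22% and 0.534% in the kaeA25/wt5 table. The conidiation genes abaA, wetA and yA, which act in the formation of asexual spores, had means of 57.3, 25.9 and 214 in the kaeA19/wt4 table and of 51.8, 83.9 and 221 in the kaeA25/wt5 table. The spore pigment gene AN8209 had means of 165 in kaeA19/wt4 and 157 in kaeA25/wt5. The conidiation genes brlA and rodA were not among the listed genes. The 4 genes with a mean were far below the members, and the mutated gene kaeA itself had means of 716 in kaeA19/wt4 and 868 in kaeA25/wt5.

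The same 3 genes led both tables in the same order, and none of them has a name or a role in the sources used. AN5245 had a mean of 755156 in the kaeA19/wt4 table and of 835535 in the kaeA25/wt5 table, which is 3.38% and 3.80% of their totals. AN1236 followed with means of 363497 in kaeA19/wt4 and 468062 in kaeA25/wt5, or 1.63% and 2.13% of the same totals. AN4218 was the third, with means of 284431 in kaeA19/wt4 and 323018 in kaeA25/wt5, or 1.27% and 1.47% of them. These 3 genes held 22.2% of the members' sum in the kaeA19/wt4 table and 24.4% in the kaeA25/wt5 table. AN5245 was also among the 4 members that could not be matched to the RefSeq gene table, the others being AN7531, prxA and hscA.

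**Figure D2:**
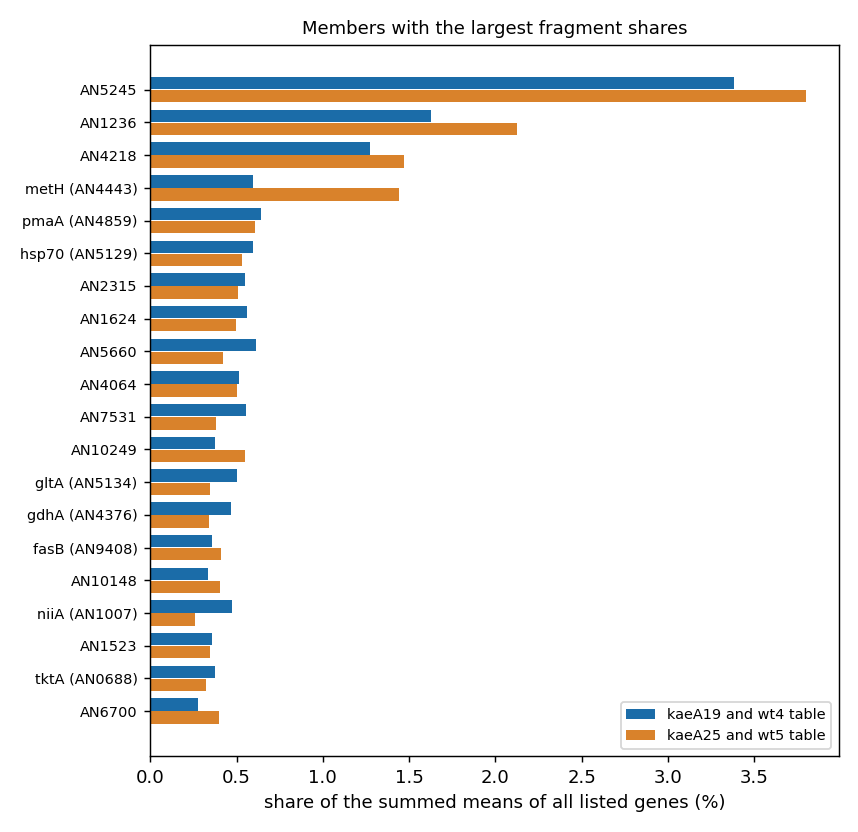
Share of the summed means of all listed genes, in percent, for the 20 members of largest mean share. The upper bar of each pair is the kaeA19/wt4 table and the lower bar the kaeA25/wt5 table. The first 3 genes exceed 1% in both tables, while metH does so in the kaeA25/wt5 table alone (1.44%, against 0.594% in the kaeA19/wt4 table).

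A role or a name was at hand for 54 of the 111 members, 31 from the annotation in the study's supplement and 23 from RefSeq symbols. The 57 others are given by their identifiers. The supplement lists genes the study had picked, such as changed genes, chromatin regions and potential partners. The study reported nitrogen metabolism as overrepresented among its changed genes and chromatin regions. The order of the classes therefore depends on which members had an annotation, and it may differ over all 111. The class of amino acid and nitrogen metabolism was the largest of the annotated ones by fragments, with 9 members that took 2.95% of the total in the kaeA19/wt4 table and 3.62% in the kaeA25/wt5 table. The methionine synthase gene metH (AN4443), whose enzyme makes methionine from homocysteine, had a mean of 132602 in the kaeA19/wt4 table and of 316582 in the kaeA25/wt5 table. With it the class was higher in the kaeA25/wt5 table, although 5 of its 9 members had the larger share in the kaeA19/wt4 table.

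Genes for the assimilation of ammonium were among the members. Glutamate synthase (gltA, AN5134), which makes glutamate from glutamine, had means of 111993 in kaeA19/wt4 and 76734 in kaeA25/wt5. The NADP-linked glutamate dehydrogenase gene gdhA (AN4376) had 104473 in kaeA19/wt4 and 75044 in kaeA25/wt5, and the glutamine synthetase gene glnA (AN4159) had 78132 in kaeA19/wt4 and 66987 in kaeA25/wt5. Summed, these 3 genes took 1.32% of the total in the kaeA19/wt4 table and 0.995% in the kaeA25/wt5 table. The nitrite reductase gene niiA (AN1007), for the step from nitrite to ammonium, had means of 105682 in kaeA19/wt4 and 56841 in kaeA25/wt5. All 4 genes had the larger share in the kaeA19/wt4 table. The proline oxidase gene prnD (AN1731) and the pyrroline carboxylate dehydrogenase gene prnC (AN1733), which turn proline into glutamate, lay the other way, with 40244 and 33674 in the kaeA19/wt4 table and 69432 and 72609 in the kaeA25/wt5 table. The remaining members of the class were AN2526, for a ketol-acid reductoisomerase of branched-chain amino acid synthesis (25319 in kaeA19/wt4 and 40546 in kaeA25/wt5), and argEF (AN8770), of arginine synthesis (26046 in kaeA19/wt4 and 21380 in kaeA25/wt5).

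The 7 members of lipid metabolism took 1.47% of the total in the kaeA19/wt4 table and 1.74% in the kaeA25/wt5 table. They covered the path from citrate to unsaturated fatty acids. ATP citrate lyase, which makes cytosolic acetyl-CoA, is encoded by aclA (AN2435, means of 20213 in kaeA19/wt4 and 28187 in kaeA25/wt5) and aclB (AN2436, 33098 in kaeA19/wt4 and 51892 in kaeA25/wt5). Acetyl-CoA carboxylase (accA, AN6126), which makes malonyl-CoA, had 42673 in kaeA19/wt4 and 50567 in kaeA25/wt5. The 2 subunits of fatty acid synthase, fasA (AN9407) and fasB (AN9408), had 51453 and 79950 in the kaeA19/wt4 table and 61699 and 89812 in the kaeA25/wt5 table. The desaturase gene sdeA (AN6731) closed the path with 22548 in kaeA19/wt4 and 27516 in kaeA25/wt5. All 6 of these had the smaller share in the kaeA19/wt4 table, where aclA and aclB together took 0.239%, against 0.364% in the kaeA25/wt5 table. The member outside this path, AN7625, for an enzyme of inositol synthesis, had 77186 in kaeA19/wt4 and 72113 in kaeA25/wt5.

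The 7 chaperone genes took 1.53% in the kaeA19/wt4 table and 1.48% in the kaeA25/wt5 table. The cytosolic Hsp70 gene hsp70 (AN5129) had means of 132462 in kaeA19/wt4 and 116354 in kaeA25/wt5, and hscA (AN12473), for the Hsp70 of the ribosome, had 57813 in kaeA19/wt4 and 76790 in kaeA25/wt5. The Hsp70 of the endoplasmic reticulum, bipA (AN2062), had 32002 in kaeA19/wt4 and 23352 in kaeA25/wt5. Summed, these 3 annotated Hsp70 genes took 0.996% in the kaeA19/wt4 table and 0.984% in the kaeA25/wt5 table. Their sum was thus alike in both tables, while the single genes differed in both directions. Hsp70 genes without annotation or below the limit were not counted. The mitochondrial chaperonin gene hsp60 (AN6089) had 36336 in kaeA19/wt4 and 30052 in kaeA25/wt5. The gene hsp88 (AN1047), named for an Hsp110-type chaperone of Neurospora, had 32541 in kaeA19/wt4 and 34899 in kaeA25/wt5, and sti1 (AN9124), for a partner of Hsp90 in yeast, had 26240 in kaeA19/wt4 and 21170 in kaeA25/wt5. The gene of the disaggregase hsp104 (AN0858) had 22934 in kaeA19/wt4 and 23376 in kaeA25/wt5.

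**Figure D3:**
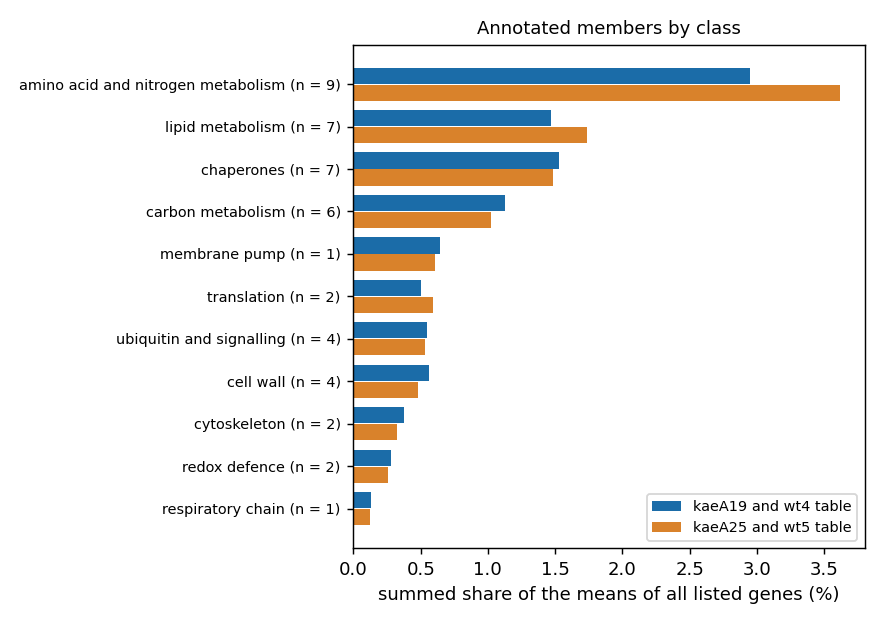
Summed share of the means of all listed genes, in percent, for the classes of annotated members, with the number of members in brackets. The upper bar of each pair is the kaeA19/wt4 table and the lower bar the kaeA25/wt5 table. Amino acid and nitrogen metabolism is longest (2.95% in kaeA19/wt4 and 3.62% in kaeA25/wt5), and the 9 members of other annotation and the 57 without one are not drawn.

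Carbon metabolism outside glycolysis had 6 members with 1.13% in the kaeA19/wt4 table and 1.03% in the kaeA25/wt5 table. The transketolase gene tktA (AN0688) and AN5907, for ribose-5-phosphate isomerase, belong to the pentose phosphate pathway and had means of 83190 and 29614 in the kaeA19/wt4 table and of 71236 and 21244 in the kaeA25/wt5 table. Pyruvate carboxylase (pycA, AN4462), which refills the citrate cycle, had 53157 in kaeA19/wt4 and 44122 in kaeA25/wt5. For the cycle itself, cit1 (AN8275), named for a citrate synthase of yeast, had 37498 in kaeA19/wt4 and 39828 in kaeA25/wt5, and the aconitase gene acoA (AN5525) had 22270 in kaeA19/wt4 and 27155 in kaeA25/wt5. AN5975, for mannitol-1-phosphate dehydrogenase, had 25884 in kaeA19/wt4 and 21892 in kaeA25/wt5. The plasma membrane proton pump gene pmaA (AN4859), which energizes nutrient uptake, reached 143562 in kaeA19/wt4 and 133169 in kaeA25/wt5, or 0.643% and 0.606% of their totals. The only annotated member of the respiratory chain was cox5b (AN4525), named for a cytochrome c oxidase subunit of yeast, with 29229 in kaeA19/wt4 and 27049 in kaeA25/wt5.

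The 4 members of cell wall building took 0.560% in the kaeA19/wt4 table and 0.482% in the kaeA25/wt5 table. They were gfa1 (AN10709), for the first step of chitin precursor synthesis in yeast (36364 in kaeA19/wt4 and 35199 in kaeA25/wt5), sun1 (AN6697, 41294 in kaeA19/wt4 and 30246 in kaeA25/wt5), gel1 (25860 in kaeA19/wt4 and 20097 in kaeA25/wt5) and bgt2 (AN7950, 21526 in kaeA19/wt4 and 20384 in kaeA25/wt5), the last 3 named for cell wall proteins of Aspergillus fumigatus. Of these, gel1 and bgt2 code for glucan-joining enzymes in that fungus. Actin (act1, AN6542) had 62071 in kaeA19/wt4 and 48678 in kaeA25/wt5, and nudA (AN0118), for the very large heavy chain of the motor dynein, had 22150 in kaeA19/wt4 and 22904 in kaeA25/wt5. In translation, tif1 (AN2932), named for the initiation helicase of yeast, had 58070 in kaeA19/wt4 and 64104 in kaeA25/wt5, and cpcB (AN4163), for a WD-repeat protein of the ribosome, had 54401 in kaeA19/wt4 and 65535 in kaeA25/wt5. No member was annotated as a ribosomal protein, but 57 members had no annotation, so the number of such genes among the members is unknown.

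Members of redox defence were the peroxiredoxin gene prxA (AN8692, 42320 in kaeA19/wt4 and 34889 in kaeA25/wt5) and the superoxide dismutase gene sod1 (AN0241, 20859 in kaeA19/wt4 and 22168 in kaeA25/wt5). The polyubiquitin gene ubi4 (AN2000) had 32016 in kaeA19/wt4 and 28127 in kaeA25/wt5. The gene tom1 (AN1966), named for a ubiquitin ligase of yeast, had 32933 in kaeA19/wt4 and 37257 in kaeA25/wt5. The 14-3-3 protein gene artA (AN4501) had 33554 in kaeA19/wt4 and 30071 in kaeA25/wt5, and arfA (AN1126), for a small GTPase of secretion, had 23825 in kaeA19/wt4 and 21945 in kaeA25/wt5. The largest annotated members outside these classes were CweA (AN1827, 54689 in kaeA19/wt4 and 66733 in kaeA25/wt5), pyrABCN (AN0565), which starts pyrimidine synthesis (35299 in kaeA19/wt4 and 64089 in kaeA25/wt5), and AN3674, with a predicted phospholipid binding domain (57293 in kaeA19/wt4 and 37165 in kaeA25/wt5). Beside them stood the vitamin B6 gene pyroA (AN7725, 30633 in kaeA19/wt4 and 37921 in kaeA25/wt5), prp8 (AN4523, 28667 in kaeA19/wt4 and 32489 in kaeA25/wt5), named for a core protein of the yeast spliceosome, EifCb (AN0359, 24795 in kaeA19/wt4 and 29030 in kaeA25/wt5), aarA, AN7594 (27027 in kaeA19/wt4 and 31844 in kaeA25/wt5) and AN10649 (27940 in kaeA19/wt4 and 30670 in kaeA25/wt5). AN10649 carries a reverse transcriptase domain, as repeated elements do, so its fragments may belong to several copies and its value is uncertain.

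The 57 members without annotation took 16.9% of the total in the kaeA19/wt4 table and 17.9% in the kaeA25/wt5 table, more than all annotated members together. After the 3 leading genes, 9 of them had a mean share of 0.3% to 1%, namely AN2315, AN1624, AN5660, AN4064, AN7531, AN10249, AN10148, AN1523 and AN6700. Of these, AN5660 had means of 137022 in kaeA19/wt4 and 92578 in kaeA25/wt5, and AN7531 of 123659 in kaeA19/wt4 and 83344 in kaeA25/wt5. Larger in kaeA25/wt5 were AN10249, with means of 83375 in kaeA19/wt4 and 121291 in kaeA25/wt5, and AN6700, with 61777 in kaeA19/wt4 and 87841 in kaeA25/wt5. Nearly level were AN4064 (114277 in kaeA19/wt4 and 110313 in kaeA25/wt5) and AN1523 (80462 in kaeA19/wt4 and 76527 in kaeA25/wt5). AN2315 had 123100 in kaeA19/wt4 and 112193 in kaeA25/wt5, and AN1624 had 125050 in kaeA19/wt4 and 108689 in kaeA25/wt5. AN10148 had 74451 in kaeA19/wt4 and 88821 in kaeA25/wt5. A mean share of 0.2% to 0.3% was found for AN0687, AN0240, AN1263, AN6010 and AN1222. The 9 with 0.15% to 0.2% were AN4575, AN3954, AN5834, AN8605, AN8216, AN1883, AN0641, AN4342 and AN10285. The 14 with 0.12% to 0.15% were AN6708, AN6717, AN8794, AN0316, AN0833, AN2928, AN4888, AN2670, AN4402, AN4463, AN5999, AN1182, AN5482 and AN7041. The 15 with 0.1% to 0.12% were AN1162, AN5162, AN3729, AN10256, AN6630, AN3702, AN0252, AN0747, AN10195, AN4401, AN8866, AN8273, AN0870, AN5452 and AN4379, and AN8712 and AN4956 lay below 0.1%.

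The ratio between the tables rests on the means that chose the members, and the limit left out the 64 genes that reached it in 1 table alone. AN7451, for one, had 11340 in kaeA19/wt4 and 34681 in kaeA25/wt5, and AN4190 had 35847 in kaeA19/wt4 and 15335 in kaeA25/wt5. The log2 ratio of the share in the kaeA19/wt4 table over that in the kaeA25/wt5 table had a median of 0.01 over the members, and 0.02 over the 7283 genes above 0 in both tables. The ratio was above 0 for 56 members and below 0 for 55. For 99 members (89.2%) it was within 1.5-fold either way. Among the genes whose lower mean was 2000 to 20000 this held for 92.4% of 1941, among those at 200 to 2000 for 87.6% of 3802, and among those at 20 to 200 for 55.1% of 1242. The share for the members thus lay between those of the 2 bands below them, and above that of the lowest band. The tables were normalized separately and differ in marker mutations and in the kaeA allele, so these cannot be told apart for any ratio, and without replicate values the size of a ratio cannot be set against the spread between libraries.

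**Figure D4:**
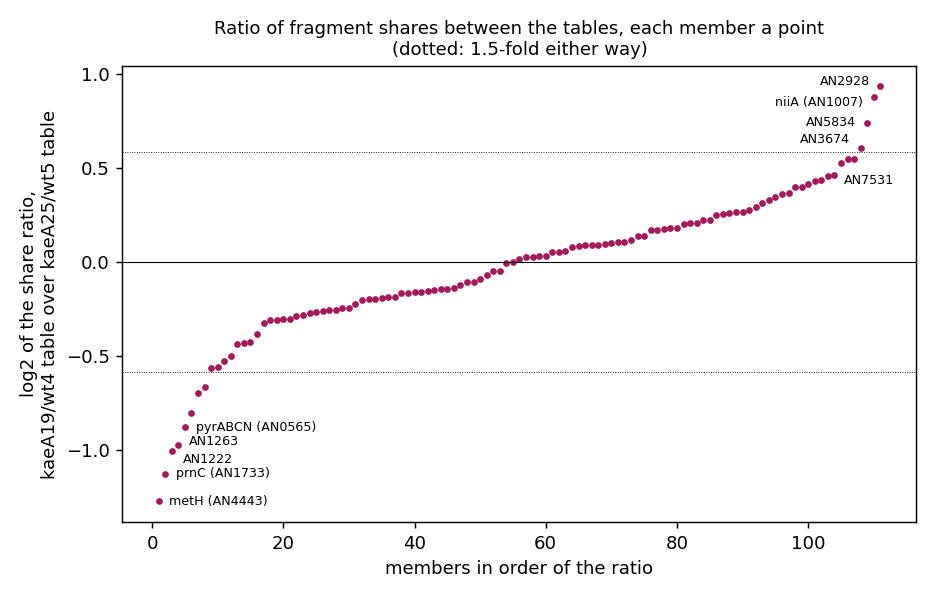
Log2 of the ratio of fragment shares, the kaeA19/wt4 table over the kaeA25/wt5 table, for each of the 111 members in order of the ratio. The dotted lines mark 1.5-fold either way, and the 5 lowest and 5 highest members are named. The points run from -1.28 for metH to 0.93 for AN2928, and 99 of them lie between the dotted lines.

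A difference of over 2-fold was found for 3 members (2.70%), all with the smaller share in the kaeA19/wt4 table, against 41 of the 1941 genes with a lower mean of 2000 to 20000 (2.11%) and 657 of the 7283 genes above 0 in both tables (9.02%). They were metH with a log2 ratio of -1.28, prnC with -1.13 and AN1222 with -1.01, the last with means of 31516 in kaeA19/wt4 and 62392 in kaeA25/wt5. AN1263 at -0.97 (34323 in kaeA19/wt4 and 66432 in kaeA25/wt5) and pyrABCN at -0.88 came next. At the other end were AN2928 with a log2 ratio of 0.93 and means of 39447 in kaeA19/wt4 and 20376 in kaeA25/wt5, niiA with 0.87, AN5834 with 0.74 (51874 in kaeA19/wt4 and 30620 in kaeA25/wt5), AN3674 with 0.60 and AN7531 with 0.55. AN2928 was close to the limit in the kaeA25/wt5 table. AN4190, with 35847 in kaeA19/wt4 and 15335 in kaeA25/wt5, lay further off in this direction but was left out by the limit. The shared direction of the 3 members over 2-fold thus depends on the limit. Without metH the 4 first genes by fragments in both tables were AN5245, AN1236, AN4218 and pmaA.

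Some members are next to each other in the RefSeq annotation. Of the 107 members matched to it, 12 (11.2%) had another member as the nearest gene on one side, in 6 pairs, while 178 of 7336 matched genes (2.43%) had a member beside them. The pairs were aclA with aclB, fasA with fasB, AN0687 with tktA, AN0240 with sod1, pycA with AN4463, and AN4401 with AN4402. The lipid pairs code for subunits of 1 enzyme each, and both genes of each pair had log2 ratios of the same sign (-0.50 for aclA and -0.67 for aclB, -0.28 for fasA and -0.19 for fasB). The ratios were also of 1 sign for AN0687 (0.10) with tktA (0.20) and for pycA (0.25) with AN4463 (0.10). They differed in sign for AN0240 (0.31) with sod1 (-0.11) and for AN4401 (-0.0089) with AN4402 (0.22). AN0687 had means of 67122 in kaeA19/wt4 and 61606 in kaeA25/wt5, against 83190 in kaeA19/wt4 and 71236 in kaeA25/wt5 for tktA. The sources used do not say whether fragments were counted by strand, and fragments of overlapping neighbours may then be shared.

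The study also mapped chromatin regions recovered with KaeA by ChIP-Seq and listed potential protein partners that were purified with KaeA, neither of which entered the choice of members. Of the 111 members, 20 (18.0%) were in the gene list of these chromatin regions, against 72 of the 7729 listed genes (0.932%). The share went down with abundance, to 1.91% of genes with a lower mean of 2000 to 20000, 0.210% at 200 to 2000 and 0.161% at 20 to 200. The members in this list were metH, pmaA, hsp70, gdhA, niiA, AN7625, glnA, aclB, prxA, AN10285, hsp60, AN2526, AN0833, ubi4, AN10649, AN2670, sdeA, aclA, AN5975 and hsp104. Of the 8 glycolysis and histone genes over the limit that were left out, 3 were in it as well. Transcript abundance moved with membership in the list, and its part in the count was not tested.

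**Figure D5:**
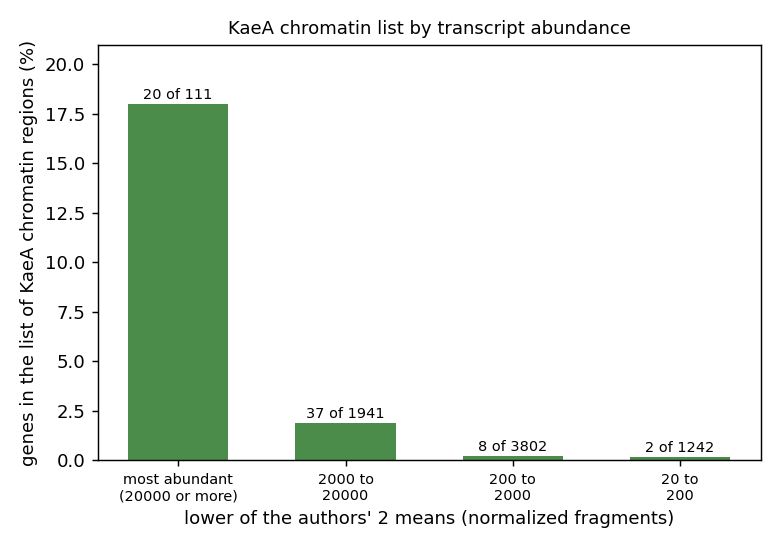
Percent of genes that are in the gene list of KaeA chromatin regions, for the 111 members and for the other genes by the lower of their 2 means in normalized fragments. The bars carry the number of genes in the list and in the group. The bar of the members reaches 18.0% (20 of 111) and the next 1.91% (37 of 1941).

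Among the potential partners of KaeA, 7 were products of members (6.31%), against 80 of all listed genes (1.04%) and 58 of the 1941 genes with a lower mean of 2000 to 20000 (2.99%). They were those of metH, gdhA, pyrABCN, AN3674, artA, AN2928 and arfA. The share of partners also went down with abundance, to 0.342% of 3802 genes at 200 to 2000 and 0% of 1242 genes at 20 to 200. The part of abundance in this count was not tested. The genes metH and gdhA were in both lists. Both lists come from strains with tagged KaeA and not from the strains compared here.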

How the data were processed

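RNA-Seq was performed by the authors on rRNA-depleted RNA from mycelium of 4 strains with 3 libraries each, sequenced from both ends. The methods state that alignment used TopHat2 (version 2) with Bowtie2 against the FGSC A4 genome from AspGD, that correctly oriented pairs were kept, and that fragments were counted per gene. The submitters' processing notes also name FastQC and edgeR. The deposited value used is a signal, the authors' mean over 6 libraries of fragment counts, taken from its column name (a DESeq2 term) as normalized for library size and not scaled by gene length. The other 5 columns of each table hold the authors' log2 fold change of mutant against control, its standard error, the statistic and 2 kinds of p-value, and were not used. The planned test of counts per library could not be run, and the tables used give neither depth nor precision per library.

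The share of a gene is its mean divided by the sum of the means in the same table. Shares were compared between tables as a log2 ratio, with no pseudocount and no filter on the members. Members and classes were chosen with earlier results of these data known. Classes follow the annotation in the study's supplement or RefSeq symbols (assembly ASM1142v1, 7336 of 7729 genes matched by locus tag). Since that assembly is not named as the one used for counting, its positions served only to find which genes neighbour each other, its lengths were not used, and levels per length were not computed. Genes were named by rank of share, ratio of shares, distance from the limit and class, and other members were named to account for each one. The selection code was run on simulated data, with members set at or above the limit and all other genes below it. That run checks the code only and lends no weight to the choice of members. Alternatives were other limits, other totals and other scalings. Python 3.11.15, numpy 2.4.6, pandas 2.3.3 and matplotlib 3.10.9 were used.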

Additional observations from a re-analysis of the deposited data

How the results depend on the processing

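The share of the members in the totals followed the limit on the mean. With a limit of 10000 there were 331 genes with 44.3% of the total in the kaeA19/wt4 table and 45.6% in the kaeA25/wt5 table, and with a limit of 40000 there were 34 genes with 18.0% in kaeA19/wt4 and 19.5% in kaeA25/wt5. With the limit required in at least 1 table there were 175 genes with 34.7% in kaeA19/wt4 and 35.7% in kaeA25/wt5. With the glycolysis and histone genes kept there were 119 genes with 30.2% in kaeA19/wt4 and 32.0% in kaeA25/wt5. A total over genes with a mean of at least 100 in both tables gave 28.4% in kaeA19/wt4 and 30.4% in kaeA25/wt5. Leaving out the 10 genes of highest mean in each table, from members and total alike, gave 20.7% in kaeA19/wt4 and 21.3% in kaeA25/wt5. Those 10 genes were not all the same in both tables, so these last shares are of different gene sets. In each of these settings the share was larger in the kaeA25/wt5 table. All but the last kept AN5245, AN1236, AN4218 and metH. In the main setting the first 3 of these took 6.29% in kaeA19/wt4 and 7.40% in kaeA25/wt5. For metH it was 0.594% in kaeA19/wt4 and 1.44% in kaeA25/wt5. Of the 111 members, 56 had the larger share in kaeA19/wt4 and 55 in kaeA25/wt5. The larger sum was thus not shared by most members. The median log2 ratio of the members' shares was near 0 and changed sign, with -0.0089 at a limit of 10000, 0.041 at 40000, 0.0063 with glycolysis and histone genes kept, 0.052 with the limit in at least 1 table, -0.019 when scaled to the median of all genes and 0.035 with the means as deposited, so no direction is read from it.

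No paired analysis was possible because the tables hold 1 mean per gene and no values per library, and settings that leave out 1 replicate were not run for the same reason. The alternative with means divided by coding length was not run, nor was the ranking per length, since no coding length was used here.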
